A study of Mus musculus with 36 samples.

Results

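The difference between enforced and spontaneous wake was compared between RNA on tagged ribosomes, mainly of oligodendrocytes, and the remaining forebrain RNA of the same mice. The arrays were chosen by state and by the animal that both fractions came from: 6 sleep deprived and 6 spontaneously awake animals, each with a bound and an unbound array, gave 24 of the 36 arrays and 12 of the 18 animals of the series. All mice were C57BL/6 and carried the Cnp – eGFP-L10a transgene in heterozygous form, in which the Cnp promoter puts a green fluorescent tag on a ribosomal protein mainly in oligodendrocytes. Antibody against the tag pulled down the bound fraction of 1 forebrain sample per animal, and the supernatant was the unbound fraction, with neurons and other glia. Waking animals were killed in the dark, between 3 and 5 am, after spending at least 70% of the preceding 6 to 7 h awake. Sleep deprived animals had been awake for most of the dark period and were then kept awake for 4 h in the light with new objects. The 6 sleeping animals, killed in the light after at least 75% of that window asleep, entered the fits only to estimate the spread and appear below only where named. Waking and sleep deprivation thus differed in the length of wake, in its cause and in light phase, which cannot be told apart here. Age and sex are not given in the sources used here.

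Oligodendrocytes wrap axons in myelin, and messages on their tagged ribosomes can be collected without sorting cells. Prolonged enforced wake is known to raise glucocorticoid hormone in rodents, whose receptor is present in glia and neurons alike, while neuronal activity during wake switches on immediate-early genes in neurons. A state change that differs between the fractions compares messages on tagged ribosomes with those left in the supernatant, but only relative to each other. Both fractions held oligodendrocyte and neuron messages, and the bound fraction alone was pulled down with ribosomes. Such a difference therefore does not assign a response to the tagged cells or to the surrounding tissue.

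For each gene, the log2 signal of the unbound array was subtracted from that of the bound array in each animal, and the mean of these differences in waking was subtracted from that in sleep deprivation. This quantity, called the fraction-by-state difference below, is positive where sleep deprivation moved the bound signal up relative to the unbound signal. It was tested for 13925 genes with limma, and a gene counts as called where its p, adjusted by the Benjamini-Hochberg method, is below 0.05. Errors of differences are limma standard errors, and each state had 6 animals. Because a fraction is a bulk sample, fewer cells of a type and less RNA per cell cannot be told apart.

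In total, 671 of 13925 genes were called (4.82%). Of these, 187 had a positive difference (1.34%) and 484 a negative one (3.48%), and 239 differed by at least 2-fold. In 662 of the called genes all 6 sleep deprived animals lay on the same side of the waking mean, and in 9 genes 5 of 6 did. These counts use the same values as the calls and are largely fixed by them, so they are no separate check. The 6 and 6 animals did not overlap for 502 genes of all tested (3.61%), 360 of them called. State changes of the called genes had opposite signs in the bound and unbound arrays for 605 of 671. Calling genes for the difference between these changes itself favours opposite signs, and the share over all tested genes was not counted.

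Within the bound arrays, 698 genes (5.01%) were called between sleep deprivation and waking, 375 higher (2.69%) and 323 lower (2.32%) in sleep deprivation. Within the unbound arrays 1386 were (9.95%), 1179 higher (8.47%) and 207 lower (1.49%). Most of the 671 calls came with a state change called in 1 fraction alone, which does not mean that the other fraction was unchanged. Among the 187 positive ones, 72 were called in the bound arrays alone, 51 in the unbound arrays alone, 9 in both with opposite signs, 6 in both with the same sign and 49 in neither. Among the 484 negative ones the counts were 124, 209, 11, 0 and 140. Of the 105 genes called in both fractions, 85 moved the same way, and 6 of these 85 also differed in size between the fractions.

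**Figure D1:**
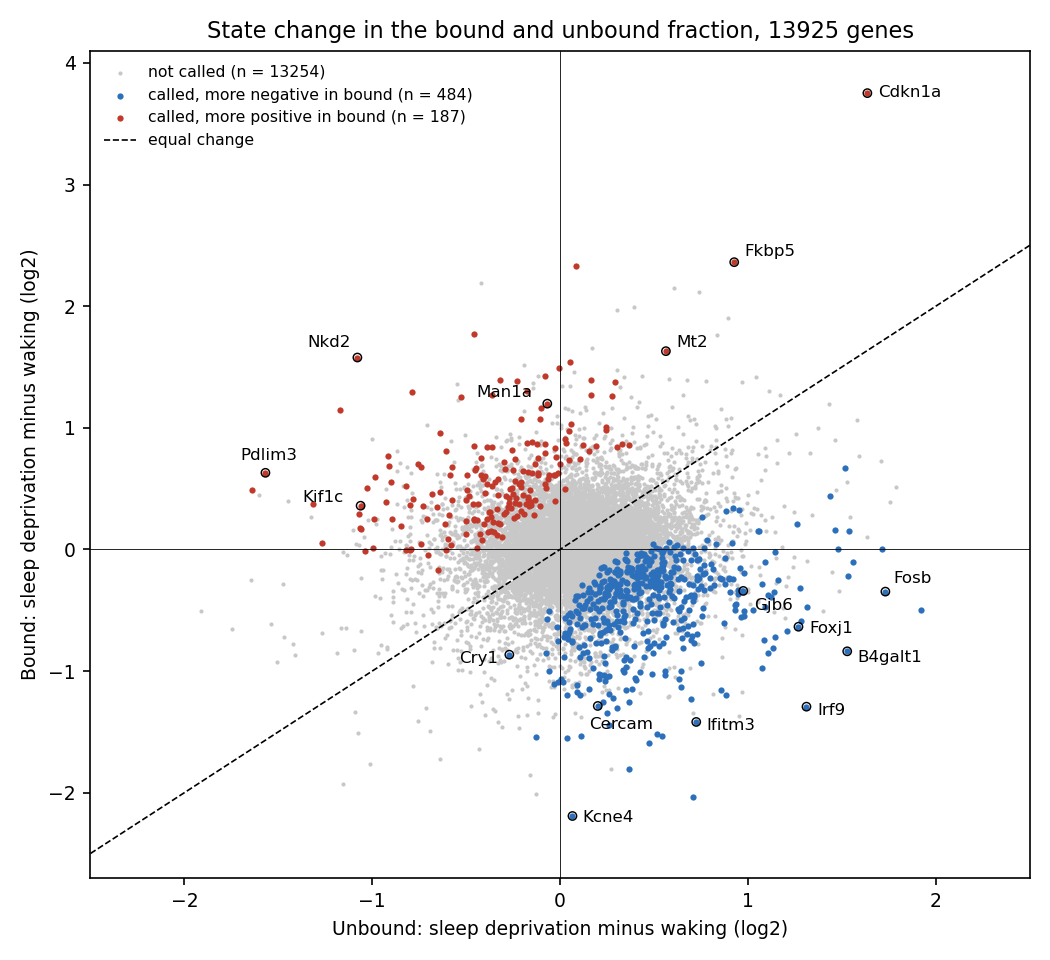
State change of each gene, sleep deprivation minus waking in log2, in the unbound arrays (horizontal axis) and the bound arrays (vertical axis), for 13925 genes. Red and blue points are the 187 and 484 genes called for the fraction-by-state difference, the dashed line marks equal change, and circles mark named genes. Cdkn1a and Fkbp5 lie in the upper right above the line, while most called genes lie in the quadrants of opposite sign. Calling genes for the difference itself favours those quadrants.

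The direction of the calls depended on how arrays were scaled. As deposited, arrays had nearly equal means within a group but not between groups: 5.93 and 5.91 log2 in bound waking and bound sleep deprivation, 6.34 and 6.41 log2 in the unbound arrays. The bound minus unbound array mean thus differed by −0.09 log2 between the states (exact two-sided permutation test over 6 and 6 animals, p = 0.00216, the smallest that 924 splits can give). Array means had an SD of only 0.003 to 0.006 log2 within these groups. Nearly any offset between groups would give that p, so it does not measure a difference between animals. The median fraction-by-state difference of all genes was −0.10 log2. After median centring it was 0.02, and −0.01 after quantile normalization, whether over all arrays or by fraction. Positive calls made up 27.9% as deposited and 57.8% (median centring), 53.5% (quantile, all arrays) and 52.7% (quantile, within a fraction) otherwise. The unbound count was 1386 as deposited and 562 to 584 otherwise. Of the 671 genes, 393 were called in the same direction under all 3 other scalings, 186 positive and 207 negative. A difference of about 0.1 log2 has therefore no sign independent of the scaling, and the genes described below are those with larger differences unless said otherwise.

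**Figure D2:**
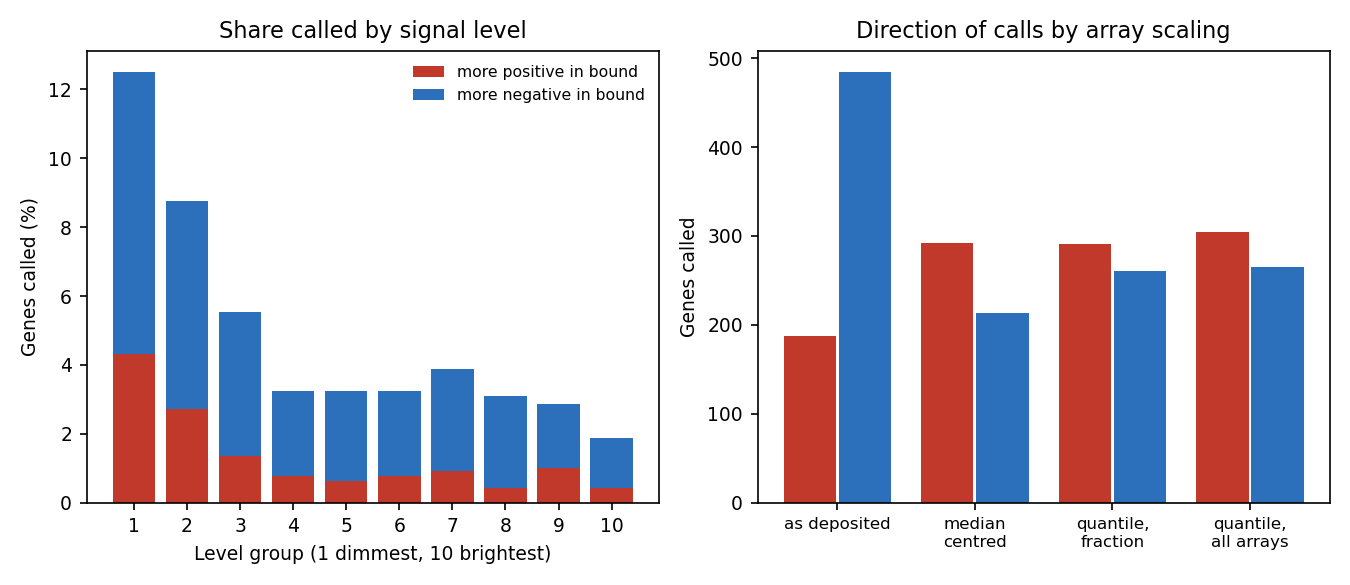
Left, share of genes called (in percent) in 10 groups of genes ordered by signal level, with positive (red) and negative (blue) differences stacked. Right, number of genes called in each direction under 4 scalings of the arrays. The dimmest group had 12.5% called and the brightest 1.87%, and positive calls outnumbered negative ones in each of the 3 other scalings.

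Dim genes were called more often. In 10 groups ordered by level the called share was 12.5% in the dimmest group, 8.76% in the next and 1.87% in the brightest. Among 74 olfactory, vomeronasal and taste receptor genes, without the filter on dim genes, 17 were called (23.0%), against 10.9% of all 18194 genes. Genes at or above the median level of a fraction gave 249 calls of 7918 (3.14%), 59 positive and 190 negative. Y-linked genes set 3 animals apart from the others in both fractions, 2 waking animals and 1 sleep deprived animal. Without those 3 animals 254 genes were called, 225 of them among the 671.

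The labelled cell types were checked by markers. The mean of 7 oligodendrocyte markers was 13.01 log2 in the bound waking arrays and 10.39 in the unbound ones, and 13.07 and 10.64 in sleep deprivation. The 6 neuron markers averaged 10.47 log2 in the bound and 11.96 in the unbound waking arrays, so the bound fraction also held messages of neuronal genes. Cnp itself, whose promoter drives the tag, had a fraction-by-state difference of −0.06 ± 0.08 log2 (adjusted p = 0.748). Rpl10a encodes the ribosomal protein that carries the tag, and its value was −0.32 ± 0.13 (adjusted p = 0.154).

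The 2 largest rises called in the bound arrays belonged to Cdkn1a and Fkbp5, both on the list of glucocorticoid response genes, and both were larger there than in the unbound arrays. Cdkn1a, which encodes the cyclin-dependent kinase inhibitor p21, rose in both fractions. In the bound arrays its lowest, median and highest signals were 7.76, 8.22 and 9.43 log2 in waking and 9.56, 12.52 and 13.52 log2 in sleep deprivation. In the unbound arrays they were 8.87, 8.97 and 9.19 log2 in waking and 10.24, 10.61 and 11.00 log2 in sleep deprivation. The states did not overlap in either fraction, and the spread among sleep deprived animals was much wider in the bound arrays. The bound change was 3.75 log2, the unbound change 1.64 log2 and their difference 2.12 ± 0.46 (adjusted p = 0.0132). Bound minus unbound was −1.11 to 0.25 log2 in waking and −0.98 to 2.52 log2 in sleep deprivation, so 1 sleep deprived animal lay among the waking ones and 5 of 6 above the waking mean.

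Fkbp5, which encodes a co-chaperone that restrains the glucocorticoid receptor, rose from a median of 7.43 to 10.29 log2 in the bound arrays and from 8.51 to 9.60 log2 in the unbound arrays. Its bound minus unbound values ran from −1.44 to 0.02 log2 in waking and from 0.22 to 0.96 log2 in sleep deprivation, with no overlap. As deposited, Fkbp5 was thus below its unbound level in nearly all waking animals and above it in every sleep deprived animal. Array medians were lower in the bound than in the unbound arrays (5.34 and 5.97 log2 in waking). The side of 0 on which bound minus unbound lies therefore depends on the scaling. The difference was 1.43 ± 0.30 log2 (adjusted p = 0.00963), and it was 0.86 (adjusted p = 0.0511) with the mean of all its probe sets.

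The metallothionein genes Mt2 and Mt1, whose products bind zinc and copper, rose more in the bound arrays as well. For Mt2 the bound change was 1.63 log2, the unbound change 0.56 and the difference 1.07 ± 0.26 (adjusted p = 0.023). Mt2 had a bound minus unbound median of −1.60 log2 in waking and −0.69 in sleep deprivation, with overlapping ranges. For Mt1 the difference was smaller, 0.50 ± 0.13 (adjusted p = 0.04), from a bound change of 0.86 and an unbound change of 0.36 log2. The other genes called in both fractions with the same sign and for the difference were Phactr3, which encodes a phosphatase and actin regulator (0.98 ± 0.21), Pgbd5, a domesticated transposase gene (0.53 ± 0.13), and Pptc7, a mitochondrial phosphatase gene (0.54 ± 0.15). These 3 and the metallothionein genes were singled out after their values were seen.

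Promoters of the 2 genes with the largest shared rise and of the clock gene Cry1, described further below, are given from RefSeq (mouse build GRCm38.p6), from 250 bases before to 50 after the listed start, 5′ to 3′ on the gene's strand, because Cdkn1a and Fkbp5 had the largest rises in the bound arrays and Cry1 was the one called clock gene. Cdkn1a has 2 listed starts, and the one whose window held more of the motifs searched, or the first if equal, was taken. Capitals mark an E-box, the letters CACGTG. Cdkn1a lies at chr17:29090729-29091028 on the plus strand, Fkbp5 at chr17:28486100-28486399 on the minus strand and Cry1 at chr10:85185005-85185304 on the minus strand.
Cdkn1a: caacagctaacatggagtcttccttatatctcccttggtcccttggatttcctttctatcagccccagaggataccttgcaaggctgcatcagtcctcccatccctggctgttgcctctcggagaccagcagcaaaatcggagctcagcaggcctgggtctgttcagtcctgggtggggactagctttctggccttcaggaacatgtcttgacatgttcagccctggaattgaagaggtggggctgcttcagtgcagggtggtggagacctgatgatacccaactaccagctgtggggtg
Fkbp5: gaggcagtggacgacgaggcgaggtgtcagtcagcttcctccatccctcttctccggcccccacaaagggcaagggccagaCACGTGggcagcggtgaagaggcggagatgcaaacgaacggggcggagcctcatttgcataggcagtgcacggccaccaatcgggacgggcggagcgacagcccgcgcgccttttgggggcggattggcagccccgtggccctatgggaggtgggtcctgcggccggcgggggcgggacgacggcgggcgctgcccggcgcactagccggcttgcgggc
Cry1: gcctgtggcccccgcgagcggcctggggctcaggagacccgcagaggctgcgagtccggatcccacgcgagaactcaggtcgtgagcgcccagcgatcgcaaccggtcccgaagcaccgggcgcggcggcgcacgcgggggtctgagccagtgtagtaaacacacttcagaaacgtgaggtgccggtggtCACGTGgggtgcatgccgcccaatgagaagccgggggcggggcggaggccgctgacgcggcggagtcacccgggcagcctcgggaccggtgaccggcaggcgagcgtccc
The E-box stood at position −169 from the start in Fkbp5 and at −60 in Cry1. It was present in 12.5% of 144 positively called genes with a listed promoter, in 11.3% of 373 negatively called genes and in 11.3% of all 11188 tested genes with one. Genes on 1 chromosome were left out of the promoter search, so none of these counts covers it. The glucocorticoid response element searched, GAACA and TGTTC with 3 bases of any kind between them, was found on either strand in 2 of the 11188 windows, neither of them in the 3 promoters shown. Searches on both strands for the cAMP response element TGACGTCA, the heat shock element (GAA, TTC and GAA, each 2 bases apart) and the CArG box also gave no match in the 3 windows. The cAMP response element was in 3.38%, the heat shock element in 0.536% and the CArG box in 1.64% of tested genes' windows. In positively and negatively called genes these shares were 4.17% and 3.49%, 0.694% and 0.268%, and 2.78% and 3.49%, and 1 of the 2 genes with a glucocorticoid response element was called positive. None of these shares was tested against the others. These letters describe a short window only.

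As a group, 25 glucocorticoid response genes were tested. In the bound arrays 10 rose, against 2.69% of all genes, and in the unbound arrays 13 rose, against 8.47% of all genes, while none fell in either. For the fraction-by-state difference 4 were called positive (Cdkn1a, Fkbp5, Mt2 and Mt1) and 1 negative (Gjb6), which is 20% of the list against 4.82% of all genes. The list median was 0.14 log2, and it lay 0.24 above the median of all genes. Genes of the list rose in both fractions, and 5 of the 25 were called for unequal change. Under the other scalings 9 or 10 members rose in the bound and 8 or 9 in the unbound arrays. Of all 13925 to 13932 genes, 352 to 447 rose in the bound and 284 to 294 in the unbound arrays there.

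A pair of list members close to the threshold pointed in opposite directions (both were singled out after their values were seen). Zbtb16, a zinc finger transcription factor gene, had a bound change of 1.90 log2 and an unbound change of 0.89, both called, and a difference of 1.01 ± 0.31 (adjusted p = 0.0718). Plin4, which encodes a lipid droplet coat protein, rose by 1.71 log2 in the unbound arrays, while its bound change of 0.73 was not called, and the difference was −0.98 ± 0.28 (adjusted p = 0.0506). Sgk1, a glucocorticoid-induced kinase gene, rose by 1.05 log2 in the unbound arrays and had a bound change of 0.47 that was not called (difference −0.57 ± 0.19, adjusted p = 0.0956).

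**Figure D3:**
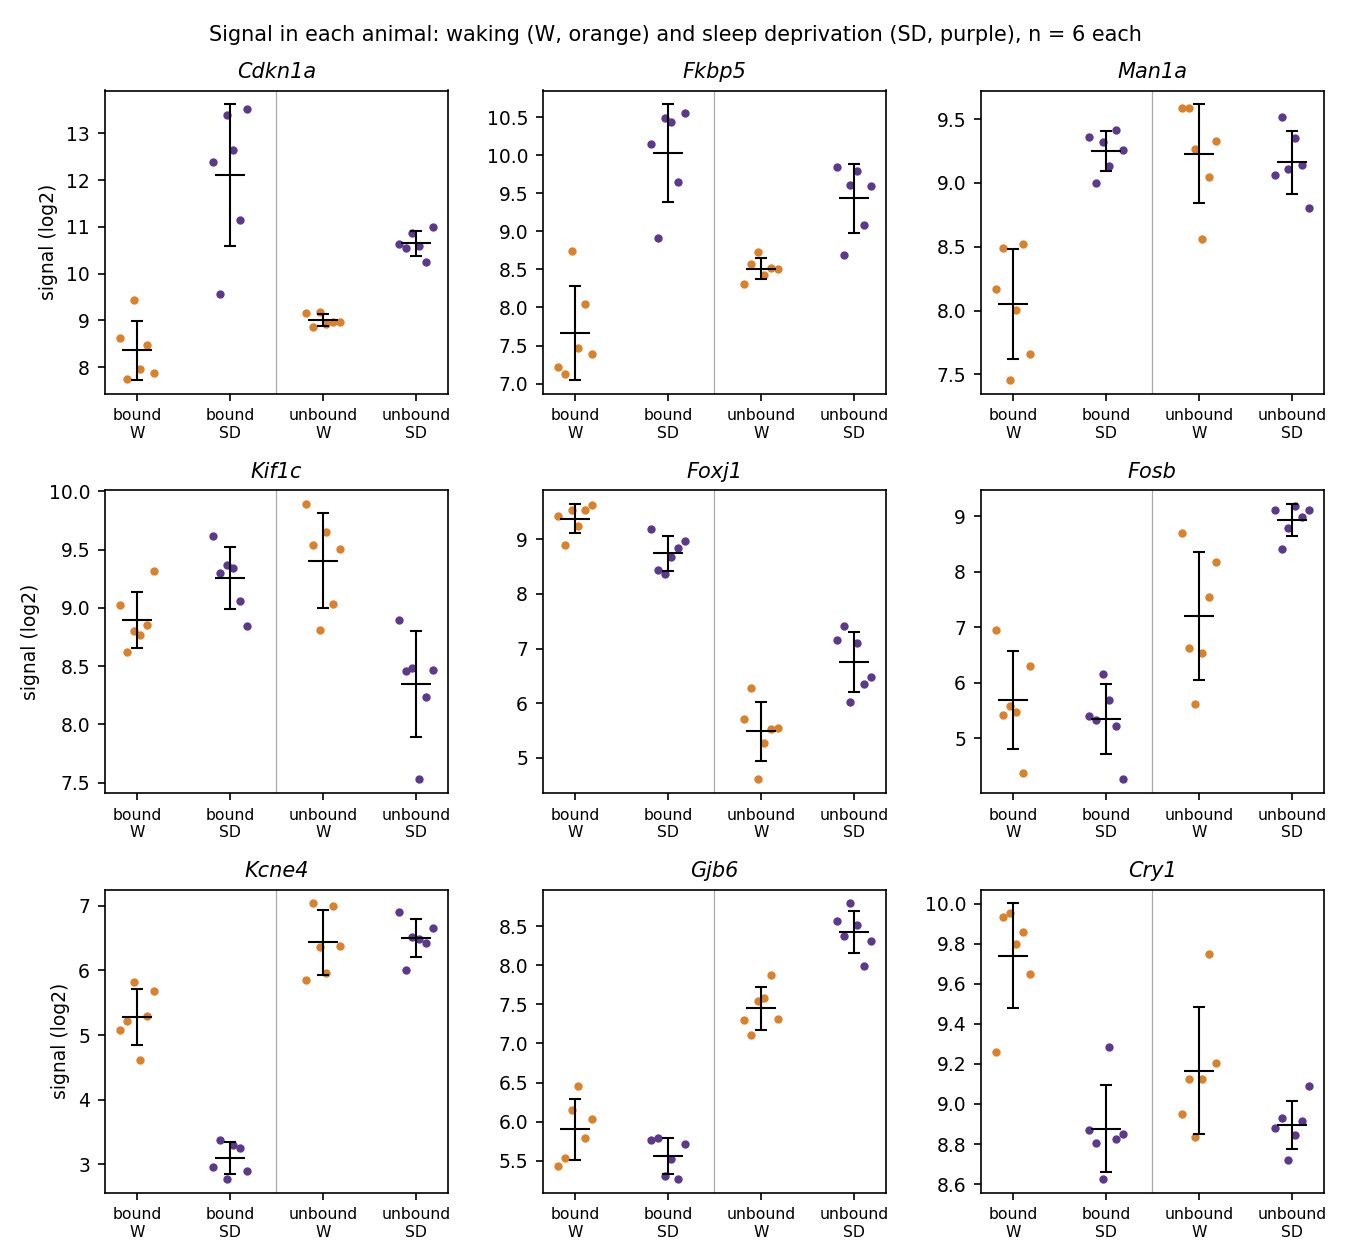
Signal (log2) of 9 genes in each animal, in bound and unbound arrays of waking (W, orange) and sleep deprived (SD, purple) mice, with the mean and SD of 6 animals per group. Cdkn1a and Fkbp5 were higher in sleep deprivation in both fractions, Man1a in the bound arrays and Fosb and Gjb6 in the unbound arrays. Kcne4 was lower in the bound arrays, and Foxj1 was lower in the bound and higher in the unbound arrays.

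Some messages were called higher in the bound arrays alone. Man1a, which encodes a mannosidase that trims N-linked sugars in the Golgi, had bound signals of 7.46, 8.09 and 8.52 log2 (lowest, median, highest) in waking and 9.00, 9.29 and 9.41 log2 in sleep deprivation. Its unbound median was 9.30 log2 in waking and 9.12 in sleep deprivation. The bound arrays did not overlap between the states and the unbound arrays did. The fraction-by-state difference was 1.27 ± 0.23 log2 (adjusted p = 0.00422). Slc25a13, which encodes a mitochondrial aspartate-glutamate carrier, had a median bound minus unbound value of 2.52 log2 in waking (1.43 to 2.85) and 3.64 in sleep deprivation (3.16 to 4.62), with no overlap. Its difference was 1.27 ± 0.26 log2 (adjusted p = 0.00923), from a bound change of 1.16 and an unbound change of −0.10.

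Bcl2l1, the gene of the survival factor Bcl-xL, was the one called member of 18 apoptosis genes. It rose by 0.63 log2 in the bound arrays (adjusted p = 0.00254), with an unbound change of −0.15. Bound minus unbound was 1.05 to 1.60 log2 in waking and 1.77 to 2.25 in sleep deprivation, without overlap, and the difference was 0.78 ± 0.14 (adjusted p = 0.00422). With the mean of all its probe sets it was 0.25 (adjusted p = 0.174).

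Other positive differences came with a fall called in the unbound arrays alone. Kif1c, which encodes a kinesin motor, fell by 1.06 log2 there (adjusted p = 0.00299), from a median of 9.52 to 8.46, and had a bound change of 0.36 that was not called. Bound minus unbound was −0.92 to −0.01 log2 in waking and 0.38 to 1.82 in sleep deprivation. Every sleep deprived animal therefore lay above every waking one (difference 1.42 ± 0.25, adjusted p = 0.00394). As deposited, the message was the higher in the bound fraction in all 6 sleep deprived animals and in none of the waking ones. That side of 0 depends on the scaling of the arrays. With the mean of all probe sets the Kif1c difference was 0.46 (adjusted p = 0.0626). Cyp2j6, a cytochrome P450 gene, fell by 0.99 log2 in the unbound arrays (difference 1.24 ± 0.23, adjusted p = 0.00494), and Shf, an SH2 adaptor gene, by 0.98 (difference 1.58 ± 0.39, adjusted p = 0.026). The Cyp2j6 and Shf calls were lost under 2 and 4 of 22 alternative settings, that of Shf without waking animal 3 or sleep deprived animal 8 or 9 (adjusted p up to 0.0592).

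Without the limit on level, the 3 largest positive differences among called genes with a characterised name were those of Nkd2, Zfand4 and Perp. Nkd2, a Wnt pathway regulator, had 2.66 ± 0.53 (adjusted p = 0.00841) and Zfand4, a zinc finger gene, 2.24 ± 0.56 (adjusted p = 0.0274). Perp, a membrane protein of desmosomes, had 2.23 ± 0.56 (adjusted p = 0.0299). Nkd2 bound signals had a median of 3.86 log2 in waking and 5.25 in sleep deprivation, and its bound minus unbound ranges did not overlap. For Zfand4 and Perp the ranges overlapped. The waking bound median of Perp, 2.69 log2, was below 2.91 log2, the median level of the 74 olfactory, vomeronasal and taste receptor genes. These genes were taken as background, so the size of the Perp difference was read as a change from background. The Zfand4 and Perp calls were lost under 7 and 8 alternative settings, in 5 and 6 of the 12 fits that left out 1 animal (adjusted p up to 0.0594 and 0.0634), whereas Nkd2 was called under all 22. A second probe set of Nkd2 had a difference of −0.35.

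Messages called lower in the bound arrays alone gave many of the negative differences. Kcne4, an accessory subunit of potassium channels, had bound signals of 4.61, 5.26 and 5.81 log2 in waking and 2.77, 3.11 and 3.38 log2 in sleep deprivation. Its unbound medians were 6.38 and 6.50 log2. The bound ranges were more than 1 log2 apart and the unbound ranges overlapped. The bound fall of Kcne4 was 2.19 log2 and the difference −2.26 ± 0.31 (adjusted p = 0.000857). Its sleep deprived bound signals were near the 2.91 log2 median level of the olfactory, vomeronasal and taste receptor genes taken as background. Cercam, a cell adhesion gene, fell from a bound median of 8.77 to 7.41 log2 without overlap, while its unbound medians were 6.30 and 6.39. Its difference was −1.49 ± 0.27 (adjusted p = 0.00483). Mdk, the growth factor midkine, fell by 1.07 log2 in the bound arrays, and its unbound change of 0.63 was not called (difference −1.70 ± 0.29, adjusted p = 0.00294).

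Among the named genes were 4 neuronal messages that fell in the bound fraction, while most other neuronal genes were not called there. In the bound arrays 0 of 22 neuron genes and 1 of 11 striatal genes were called lower, and of 13 hypothalamic genes 1 was higher and 1 lower, against 2.32% of all genes called lower. Kcnj6, a G protein-gated potassium channel, fell by 1.25 log2 (difference −1.62 ± 0.35, adjusted p = 0.0123), Cartpt, a neuropeptide precursor, by 1.15 (difference −1.50 ± 0.32, adjusted p = 0.0113), Rgs9, a striatal regulator of G protein signalling, by 0.72 (difference −1.07 ± 0.25, adjusted p = 0.0206), and Htr1d, a serotonin receptor, by 1.53 (difference −2.07 ± 0.52, adjusted p = 0.0286). As deposited, each was lower in the bound than in the unbound arrays in all 12 animals. The mean of the 6 neuron markers changed by −0.11 log2 in the bound arrays (exact permutation p = 0.307) and by −0.17 in bound minus unbound (p = 0.0823, adjusted p = 0.185 over 9 marker sets), and its part in these falls was not tested. The Htr1d call was lost without waking animal 1, 2 or 4 or sleep deprived animal 7 or 11 (adjusted p up to 0.0615). It was also lost with the mean of all probe sets and without the 3 animals that Y-linked genes set apart (adjusted p up to 0.0968). A second probe set of Htr1d had a difference of −0.06. The Cartpt difference was −1.04 (adjusted p = 0.0741) without the 3 animals. With the mean of all probe sets Kcnj6 had −0.39 (adjusted p = 0.146) and Rgs9 −0.29 (adjusted p = 0.309). The Rgs9 call was also lost without the 3 animals and with 12 animals only.

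Cabcoco1, a gene of a calcium-binding coiled-coil protein, had the most negative difference of all named genes, −2.74 ± 0.56 (adjusted p = 0.0092), after a bound fall of 2.04 log2 to a median of 3.63, below the 4.47 log2 that the filter asked of a bound mean. It was −2.11 (adjusted p = 0.0929) without the 3 animals. Pdk1, a kinase that restrains pyruvate dehydrogenase, was the one called member of 25 glycolysis and lactate genes (difference −1.32 ± 0.29, adjusted p = 0.0152, bound fall 1.08). A second probe set of Pdk1 had a difference of 0.26, and averaging both gave 0.08 (adjusted p = 0.904), so its direction depended on the probe set.

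A further 209 negative differences came with a call in the unbound arrays alone. This class held 67 to 85 genes under the 3 other scalings. Fosb, an activity-induced AP-1 transcription factor gene, had unbound signals of 5.62, 7.09 and 8.71 log2 in waking and 8.41, 9.05 and 9.18 log2 in sleep deprivation. Its bound medians were 5.54 and 5.37 log2. Only the unbound change was called, and the ranges there overlapped slightly because waking animals were widely spread. The unbound rise was 1.73 log2 and the difference −2.08 ± 0.46 (adjusted p = 0.015), with the call kept under all 22 alternative settings. Gjb6, the gene of the astrocyte gap junction protein connexin 30, rose by 0.97 log2 in the unbound arrays, from 7.10 to 7.88 in waking to 7.99 to 8.79 in sleep deprivation. Bound minus unbound Gjb6 did not overlap between the states (difference −1.32 ± 0.25, adjusted p = 0.00532), and its bound change of −0.34 was not called.

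Irf9, a component of the interferon-responsive transcription complex, rose by 1.31 log2 in the unbound arrays and had a bound change of −1.29 that was not called. Its unbound waking median was only 4.52 log2, below the 5.18 log2 that the filter asked of an unbound mean. The Irf9 difference was −2.60 ± 0.53 (adjusted p = 0.00887). Without the 3 animals it was −2.35 (adjusted p = 0.0733), and it was the one called member of 15 antigen presentation and interferon genes. Sostdc1, a secreted antagonist of BMP and Wnt signals, rose by 0.65 log2 there, with a bound change of −0.73 that was not called (difference −1.38 ± 0.30, adjusted p = 0.0128). Rnf138rt1, a retrogene of a ring finger protein, rose by 1.92 from an unbound waking median of only 4.99 log2 (difference −2.42 ± 0.38, adjusted p = 0.00186). Thy1, a neuronal surface glycoprotein gene, rose by only 0.29 log2 but very evenly: its unbound signals were 12.73 to 12.86 in waking and 13.05 to 13.11 in sleep deprivation. Its difference of −0.47 ± 0.11 (adjusted p = 0.0229) became −0.35 (adjusted p = 0.0944) after median centring.

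In 20 genes the fractions were called in opposite directions. The 6 genes with a characterised name whose smaller change was largest are described. Foxj1, the master regulator of motile cilia, had bound signals of 8.90, 9.48 and 9.64 log2 in waking and 8.36, 8.76 and 9.19 log2 in sleep deprivation. Its unbound signals were 4.60, 5.53 and 6.27 log2 in waking and 6.02, 6.79 and 7.41 log2 in sleep deprivation. Foxj1 was higher in the bound fraction in every animal, and the gap between the fractions was narrower in all sleep deprived animals than in any waking animal. The bound fall was 0.64 log2, the unbound rise 1.27 and the difference −1.90 ± 0.37 (adjusted p = 0.00694).

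B4galt1, a galactosyltransferase gene, had bound minus unbound values of −0.02 to 0.91 log2 in waking and −2.90 to −1.18 in sleep deprivation. It fell by 0.84 log2 in the bound and rose by 1.53 in the unbound arrays (difference −2.37 ± 0.35, adjusted p = 0.00118). The ranges of B4galt1 did not overlap. Its signals were dim, with bound medians of 5.33 and 4.39 log2 and unbound medians of 4.72 and 6.18 log2 in waking and sleep deprivation. Msrb3, which repairs oxidised methionine, fell by 1.20 in the bound and rose by 0.88 in the unbound arrays (difference −2.08 ± 0.29, adjusted p = 0.00101). Ifitm3, an interferon-induced membrane protein, fell by 1.42 and rose by 0.72 (difference −2.14 ± 0.52, adjusted p = 0.0238), and was not called without the 3 animals, without waking animal 1, 3 or 6 or without sleep deprived animal 8 (adjusted p up to 0.105). Oprk1, the kappa opioid receptor, fell by 0.66 and rose by 0.63 (difference −1.29 ± 0.24, adjusted p = 0.00532), with bound medians of only 4.51 and 3.73 log2. Pdlim3, an actin-associated LIM protein, went the other way, rising by 0.63 in the bound and falling by 1.57 in the unbound arrays (difference 2.20 ± 0.34, adjusted p = 0.00179). Its bound medians were only 3.61 and 4.32 log2. Under the other scalings 6 of 6 kept their signs in both fractions, and all but Ifitm3 stayed called in both.

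Each gene list other than the glucocorticoid one had at most 2 called members. For the 9 choroid plexus and ependyma genes 2 calls are a share of 22.2%, against 4.82% of all genes. Counts of called list members given before and after this point stand beside the same 4.82%. Among 27 immediate-early genes Fosb alone was called. The list median was −0.30 log2, 0.20 below that of all genes, and 23 of 27 values were below 0. Most of all tested genes also lay below 0 as deposited, with a median of −0.10 log2, and their share was not counted. This holds for each count of values below 0 that follows. Their state changes were called higher for 8 in the unbound and for 3 in the bound arrays, against 8.47% and 2.69% of all genes. Egr3, a zinc finger activity gene, rose by 0.81 and 0.63 log2 in the unbound and bound arrays, Homer1, a postsynaptic scaffold gene, by 0.67 and 0.56, and Fosl2, an AP-1 gene, by 0.59 and 0.77. The differences for these 3 were −0.19 ± 0.21, −0.11 ± 0.17 and 0.18 ± 0.19, none of them called. Fos had −0.12 log2 in the bound and −0.11 in the unbound arrays, neither called, and Nr4a1, a nuclear receptor gene, rose by 0.83 in the unbound arrays with a bound change of 0.31 that was not called (difference −0.52 ± 0.23, adjusted p = 0.22).

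None of 23 heat shock, 23 unfolded protein response, 13 MAPK phosphatase and Sprouty or 22 ATF4 response and amino acid supply genes was called for the difference by limma, with or without the intensity trend. Unadjusted p-values were below 0.05 for 1, 4, 2 and 1 of them, against 2855 of all 13925 genes. In the unbound arrays 12 of 23 heat shock genes rose, against 8.47% of all genes, and in the bound arrays limma called none (4 at an unadjusted p below 0.05), against 2.69% of all genes higher. Hspa8, a constitutive HSP70 chaperone, changed by 0.20 log2 in the unbound (adjusted p = 0.000477) and 0.13 in the bound arrays (difference −0.07 ± 0.09). Under each of the 3 other scalings 2 of 23 heat shock genes were called in the unbound arrays, against 562 to 584 of all 13925 to 13932 genes. Of 23 unfolded protein response genes 5 rose in the unbound and 3 in the bound arrays, against the same shares. Calr, an endoplasmic reticulum chaperone gene, rose in both (0.26 unbound, 0.46 bound).

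Of 19 core clock genes, Cry1, a repressor of the clock, was the one called. Its bound signals were 9.26, 9.83 and 9.95 log2 in waking and 8.63, 8.84 and 9.28 log2 in sleep deprivation, overlapping narrowly. Its unbound medians were 9.13 and 8.90 log2. Cry1 fell by 0.87 log2 in the bound arrays (adjusted p = 0.00264), its unbound change of −0.27 was not called, and the difference was −0.60 ± 0.16 (adjusted p = 0.0391). The call was lost under each of the 3 other scalings (−0.46 to −0.51, adjusted p = 0.0723 to 0.108) and in 16 of 22 alternative settings in all. Per3, another clock repressor, had a bound change of −0.90 and an unbound change of −0.03, neither called, and a difference of −0.87 ± 0.30 (adjusted p = 0.1).

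Oligodendrocyte programmes had few called members. None of 20 myelin and mature oligodendrocyte genes was called by limma (4 at an unadjusted p below 0.05), with a median of −0.21 log2. The unbound changes named next stood beside a median of 0.11 log2 over all genes in those arrays as deposited. Mbp, a major myelin protein gene, rose by 0.15 log2 in the bound and 0.21 in the unbound arrays (difference −0.06 ± 0.09), and Mag, an adhesion protein next to the axon, by 0.22 and 0.41 (difference −0.19 ± 0.15). Mobp rose by 0.44 in the unbound arrays with a bound change of 0.18. Aspa, which breaks down N-acetylaspartate, fell by 0.17 log2 in the bound arrays (difference −0.42 ± 0.15, adjusted p = 0.11). No gene of 16 precursor and premyelinating genes was called (2 at an unadjusted p below 0.05), and Yy1 alone of 18 lineage regulators, with −0.42 ± 0.11 (adjusted p = 0.0423), a call lost in 17 of 22 alternative settings. Over 7 oligodendrocyte markers the bound minus unbound mean was 2.62 log2 in waking and 2.43 in sleep deprivation (exact permutation p = 0.00649, adjusted p = 0.0584 over 9 marker sets). That shift was −0.18 log2 as deposited and −0.13 log2 after either quantile normalization (exact permutation p = 0.026, adjusted p = 0.117).

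None of 19 cholesterol synthesis genes was called by limma (6 at an unadjusted p below 0.05), although all 19 values lay below 0, from −0.65 to −0.03 log2, with a median of −0.33 that was 0.23 below the median of all genes. Mvd, of the mevalonate pathway, had −0.59 ± 0.18 (adjusted p = 0.0593), Dhcr7, of the last step, −0.58 ± 0.20, and Fdps, a prenyl diphosphate synthase, −0.59 ± 0.21. With the mean of all probe sets 4 of the 19 were called lower, against 653 of all 13235 genes. The list median stayed between −0.21 and −0.24 log2 under the other scalings. Of 22 phospholipid synthesis genes none was called (5 at an unadjusted p below 0.05), and of 24 fatty acid and myelin sphingolipid genes Hacd3, of very-long-chain fatty acid elongation, was (−0.52 ± 0.12, adjusted p = 0.0232). The Hacd3 call was lost under the 3 other scalings.

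Messages of other cell types were examined because they can enter the bound fraction. The 13 microglia genes had the most negative list median, −0.66 log2, with 12 of 13 below 0 and none called by limma (1 at an unadjusted p below 0.05). P2ry12, a purinergic receptor of resting microglia, had −1.20 ± 0.43 (adjusted p = 0.117). Cx3cr1, the fractalkine receptor, fell by 0.64 log2 in the bound arrays (adjusted p = 0.00867). The mean of 5 microglia markers was 5.68 log2 in waking and 5.11 log2 in sleep deprivation in the bound arrays (exact permutation p = 0.013, adjusted p = 0.117 over 9 sets). Bound minus unbound the waking animals had −1.78 ± 0.46 log2 and the sleep deprived ones −2.62 ± 0.48 (SD, n = 6, exact permutation p = 0.0195, adjusted p = 0.0877). The list median lay between −0.51 and −0.54 log2 under the other scalings.

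Of 17 astrocyte genes S100b, a calcium-binding protein, was called positive (0.62 ± 0.16, adjusted p = 0.0331), and Gjb6 negative. S100b was higher in the bound than in the unbound arrays, by 0.70 to 1.16 log2 in waking and 1.23 to 2.11 in sleep deprivation. The astrocyte markers had a mean of −1.67 log2 in waking, so list membership does not assign the S100b signal to astrocytes. The S100b call was lost in 9 of 22 alternative settings. The mean of 5 astrocyte markers was 7.75 and 7.44 log2 in the bound and 9.43 and 9.74 log2 in the unbound arrays of waking and sleep deprived animals, a shift of −0.63 log2 in bound minus unbound (exact permutation p = 0.0519, adjusted p = 0.156), so the Gjb6 value stood beside a shift in the same direction whose part was not tested. Of 22 neuron genes Thy1 and Rbfox3, which encodes the nuclear marker NeuN, were negative. Rbfox3 had −0.65 ± 0.16 (adjusted p = 0.0278), a call lost under the 3 other scalings. Of 9 choroid plexus and ependyma genes Foxj1 and Sostdc1 were called negative, while the choroid plexus marker Ttr, the carrier transthyretin, had −0.06 ± 0.20, and 3 choroid plexus markers together 0.11 log2 (exact permutation p = 0.563). Bound minus unbound, those 3 markers had a mean of −2.46 log2 in waking, whereas Foxj1 was higher in the bound fraction in every animal. Of 8 mural genes Myl9, a myosin light chain, was positive (1.46 ± 0.41, adjusted p = 0.0493), a call lost in 12 of 22 alternative settings. None of 6 endothelial genes was called (0 at an unadjusted p below 0.05).

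The counts in the following lists stand beside the 4.82% of all genes called. Kcne4 and Kcnj6 were the 2 called of 34 potassium channel genes (5.88%), whose median was −0.27 log2. Of 19 paranodal and axon-glia adhesion genes Gjb6 and Ank3, the gene of ankyrin G, were negative, the latter with −0.50 ± 0.12 (adjusted p = 0.029) and lost in 13 of 22 alternative settings. Grik4, a kainate receptor subunit, was the one called of 23 glutamate and GABA receptor genes (4.35%, difference 0.62 ± 0.17, adjusted p = 0.0455), lost in 14 of 22. Rgs9 was the one of 11 striatal neuron genes (9.09%) and Cartpt the one of 13 hypothalamic peptide genes (7.69%). Cdkn1a was the one of 10 genes of CDK inhibitors and Gadd45 proteins. By limma none was called of 25 cytosolic ribosomal protein, 38 oxidative phosphorylation, 32 proteasome, 27 tubulin and microtubule or 17 cell cycle genes (6, 5, 4, 3 and 1 at an unadjusted p below 0.05), whose medians ran from −0.06 to −0.14 log2 around the median of all genes of −0.10.

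**Figure D4:**
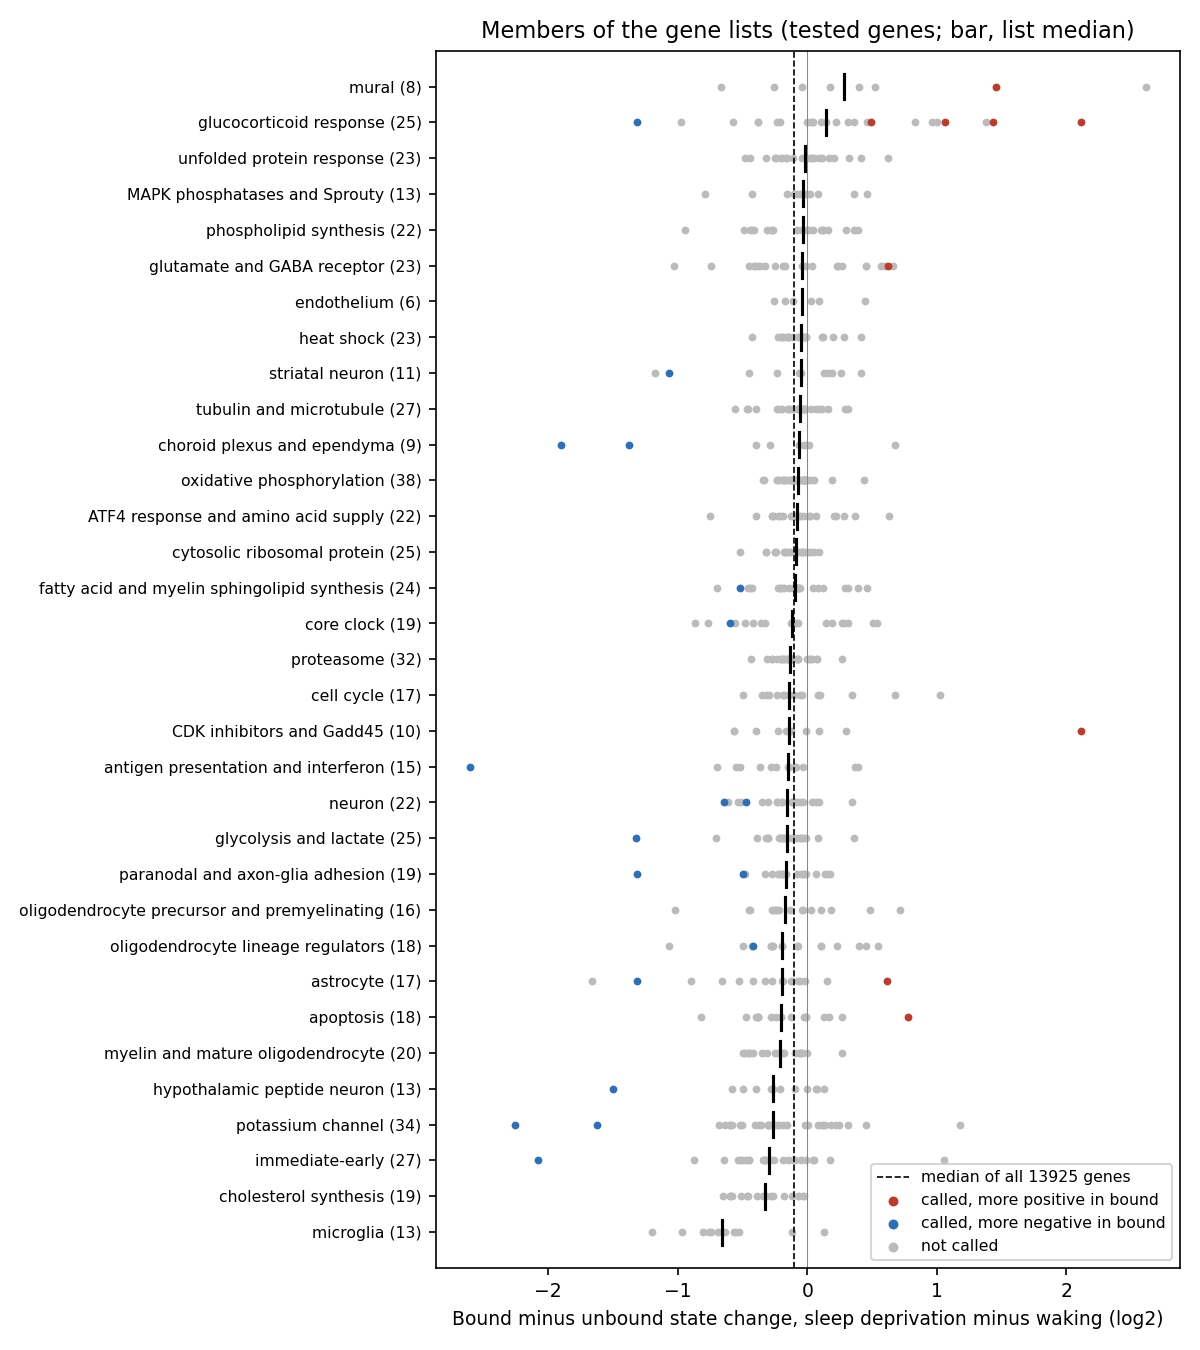
Fraction-by-state difference (log2) of every tested member of the gene lists with at least 6 tested genes, ordered by list median (black bars), with list sizes in parentheses. Red and blue points are called positive and negative genes, grey points were not called, and the dashed line is the median of all 13925 genes. The microglia list has the lowest median, −0.66, and the glucocorticoid list has 4 red points.

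Calls were spread over genes enriched in the bound fraction and genes depleted from it. Over 5 classes of genes by bound minus unbound level, from more than 2 log2 lower to more than 1 log2 higher in the bound arrays, 4.02% to 5.75% were called, with negative calls the more frequent in each class. The sleeping animals gave a further position for each called gene. The sleep mean of bound minus unbound lay nearer to waking for 107 of the 187 positive genes and nearer to sleep deprivation for 80. For the 484 negative genes it was 251 and 233. Cdkn1a and Fkbp5, with sleep means of −1.17 and −1.57 log2, lay nearer to waking, and Kif1c and B4galt1, with 0.42 and −1.13, nearer to sleep deprivation.

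Several calls near the threshold depended on single animals. Leaving out 1 of the 12 animals at a time ended the Grik4 call in 11 fits (adjusted p up to 0.0946), the Yy1 call in 10 (up to 0.0875), the Cry1 call in 9 (up to 0.0797) and the Myl9 call in 8 (up to 0.103). The S100b call was lost without waking animal 1, 3 or 5 or sleep deprived animal 6, 10 or 11 (up to 0.0667), and the Ank3 call without waking animal 1, 4 or 5 or sleep deprived animal 7, 9 or 11 (up to 0.0629). The Rbfox3 call was lost without waking animal 2, 3 or 6 or sleep deprived animal 8 or 10 (up to 0.0591), and the Hacd3 call without waking animal 2 (0.0523). Cdkn1a, Fkbp5, Man1a, Fosb, Gjb6, Kcne4, Foxj1 and B4galt1 were called in all 12 of these fits.

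Where a gene had a second probe set, that probe set gave a check on the first. Among 232 called genes with one, the second had the same sign in 161 (69.4%, exact binomial 95% interval 63.0% to 75.3%, which treats genes as independent), against 57.4% of 6468 genes that were not called. Among the brighter 157 called genes it was 73.9%. Cdkn1a, Fkbp5, Mt1 and Man1a had second probe sets with differences of 1.89, 1.12, 0.21 and 0.42 log2.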

How the data were processed

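Messenger RNA of both fractions of each animal was measured on 36 one-colour whole-genome expression arrays. Each deposited value is a log2 signal of a probe set. RMA is the method that the submitters' processing notes name. Its version, and whether groups were normalized together, are not given in the sources used here. Precision is limited by the number of arrays. Of 45101 probe sets, 34958 named 1 gene, 932 several and 9160 none, and 64 were array controls. Entrez identifiers looked up for 34754 probe sets changed 0 symbols. For each of 18194 genes the probe set with the highest mean was kept, and 13925 genes passed the filter on dim genes. It asked for a mean of 4.47 log2 in the bound or 5.18 log2 in the unbound arrays, which is the 40th percentile over probe sets.

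Tests used limma 3.58.1 in R 4.3.3 (lmFit, eBayes with intensity trend), and were checked on simulated data. Figures were drawn in Python 3.11.15 (matplotlib 3.10.9). The model fitted a mean per state to the bound minus unbound differences of all 18 animals. Both fractions of an animal carry the same number in the labels, so the pairing (animal block) comes from the design. As a check, the 2 arrays of an animal had deviations with correlations between 0.03 and 0.08 (mean 0.06), against a mean of −0.01 for arrays of different animals. For 10 of 12 animals the own array was the best match.

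Named genes were the 8 largest differences per direction among called genes at or above the median level, the 3 largest per direction without that limit, the 6 strongest with opposite changes, up to 3 called members of each list, and Cnp and Rpl10a. Uncharacterised clone names were skipped in the first 3 groups. The comparison, the 36 lists and this rule were chosen with earlier results of these data known. Promoter letters came from RefSeq. Alternatives were 3 scalings, 2 filters, the mean of all probe sets, no intensity trend, 12 animals only, without the 3 animals set apart, each animal left out, and no animal block. Sleep contrasts were left out.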

Additional observations from a re-analysis of the deposited data

Results flagged for a closer look

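In 20 genes the bound and unbound arrays were called with opposite state changes, 6 of which are named here, and the difference itself was tested. The fraction-by-state difference was −2.14 log2 for Ifitm3, −1.90 for Foxj1, −2.37 for B4galt1, −2.08 for Msrb3 and −1.29 for Oprk1, all with a bound fall and an unbound rise, and 2.20 for Pdlim3, with a bound rise and an unbound fall.

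Single animals stood apart from the other 5 of their state in 5 of 86 groups screened (Dixon's criterion at the 95% level), and chance alone flags about 1 in 20 groups. Bound minus unbound Cry1 was 0.44 log2 in sleep deprived animal 9, against −0.24 to −0.01 in the others. Kif1c was 1.82 log2 in the same animal, against 0.38 to 0.88. Oprk1 was −1.40 log2 in waking animal 1, against −0.55 to −0.19. Rabl2, a small GTPase gene, was −3.48 log2 in sleep deprived animal 10, against −1.52 to −0.83, and Slc25a13 was 4.62 log2 in sleep deprived animal 11, against 3.16 to 3.66.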

How the results depend on the processing

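Counts of called genes moved most with the filter on dim genes for the difference and in the bound arrays, and with the scaling in the unbound arrays. Without a filter 1976 genes were called for the fraction-by-state difference, 2124 in the bound and 2772 in the unbound arrays, and with the 60th percentile 197, 277 and 943. Without the 3 animals that Y-linked genes set apart the counts were 254, 234 and 708. The unbound count was 584 and 582 after quantile normalization over all arrays and within a fraction, and 562 after median centring. Without the replicate block 721 genes were called, 550 of them among the 671. Leaving out each animal in turn gave 472 to 567 genes for the difference, 532 to 704 in the bound and 989 to 1165 in the unbound arrays, and 332 of the 671 genes were called in all 12 of these fits. Signs of fraction-by-state differences turned for Pdk1 (0.082, mean of all probe sets), Cnp (0.064, median centring) and the red blood cell markers (−0.02 as deposited, 0.11 and 0.093 after quantile normalization over all arrays and within a fraction), none of which was called under those settings. Small medians and means turned too: the heat shock list from −0.05 to between 0.01 and 0.07 log2 and the MAPK phosphatase list from −0.03 to between 0.08 and 0.09 under the 3 scalings, and in the unbound arrays, after both quantile normalizations, the neuron markers from 0.06 to −0.05 and the mural markers from 0.03 to between −0.09 and −0.08. The causes were not tested. In all, 180 of the 671 genes, 66 positive and 114 negative, were called under the 3 scalings, without each animal, without the 3 animals, with 12 animals only, without the intensity trend and without the block.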

Other observations

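Brighter genes outside the naming rule were among the 180 called under all of those settings. They were chosen after their values were seen. Sgk3, a kinase of the serum- and glucocorticoid-regulated family, rose by 1.37 log2 in the bound arrays with an unbound change of 0.29 (difference 1.08 ± 0.21, limma adjusted p = 0.00585), and the animals of the 2 states did not overlap. Nufip2, an RNA-binding protein gene, rose by 0.72 in the bound arrays (difference 1.02 ± 0.14), as did Map7d2, a microtubule-associated protein gene, by 0.86 (difference 0.94 ± 0.15), and Cab39l, a scaffold of the LKB1 kinase, by 0.88 (difference 1.03 ± 0.20). Slc22a23, an organic ion transporter family gene, fell by 1.06 log2 in the bound arrays with an unbound change of 0.01 (difference −1.07 ± 0.18). Trp53inp1, a stress-induced gene, rose by 1.14 log2 in the unbound arrays with a bound change of −0.02 (difference −1.16 ± 0.23, limma adjusted p = 0.00748). Ago1, of small RNA silencing, rose by 0.56 in the unbound arrays (difference −0.78 ± 0.13). Hnrnpul1, a ribonucleoprotein gene, and Sec23ip, of vesicle export from the endoplasmic reticulum, were called in opposite directions (bound −0.53 and −0.39, unbound 0.41 and 0.37).

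Because Foxj1 was among the most changed genes, genes of motile cilia were collected by symbol after that value was seen. Of 43 tested, Foxj1 was the one called, 27 lay below 0, and the median was −0.12 log2, near the −0.10 of all genes.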
